A study of Mus musculus with 12 samples.

Results

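Cholesterol synthesis, its control, intracellular transport and export were followed through 31 genes, chosen from a list of known members of these pathways and found by symbol in the table of normalized counts. All 31 were present among the 48321 rows of the table, of which 22569 had a read in at least 1 library, and all 31 passed the filter on low counts that left 11998 genes to test. The members comprised 20 enzymes, 4 genes of the SREBP pathway, 2 intracellular sterol carriers and 5 genes of cholesterol export and its control by LXR. The enzymes are those of the route from acetyl-CoA to cholesterol. Ggps1 of its geranylgeranyl branch and the mitochondrial thiolase Acat1 are counted among the 20. Uptake receptors, ester storage and other sterol handling formed a second list of 43 genes, of which 41 were tested.

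The libraries came from SV40-immortalized brown preadipocytes of wildtype C57BL/6J mice, a line that carries the viral large T antigen, transduced by lentivirus and kept as one stable line per construct. One line carried the empty pLEX vector and the other carried tSema4B, a Flag-tagged and soluble form of mouse Sema4B, truncated to mimic the cleaved protein. Both lines were differentiated over 8 days, at first with isobutylmethylxanthine, rosiglitazone, dexamethasone, insulin and triiodothyronine and then with insulin and triiodothyronine alone, moved to serum-free medium with albumin, and then left unstimulated or given 2 μM norepinephrine (NE) for 6 h. This gave 4 groups of 3 libraries, which the labels call technical replicates. The p-values therefore measure the spread between these libraries only, and a difference between tSema4B and vector is one between 2 lines.

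Cells make cholesterol from acetyl-CoA through mevalonate, isoprenoids, squalene and lanosterol, and the genes of this route are switched on together by the transcription factor SREBP-2, the product of Srebf2. SREBP-2 leaves the endoplasmic reticulum with the escort protein Scap when sterols are low and is held there by Insig1 and Insig2 when sterols are plentiful. When oxysterols accumulate, the nuclear receptors LXRα (Nr1h3) and LXRβ (Nr1h2) induce the exporters Abca1 and Abcg1. Adipocytes hold much unesterified cholesterol, in part at the surface of their lipid droplets.

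Promoter sequences from RefSeq (GRCm38.p6; 250 bases before to 50 bases after the start site) were matched to 24 of the 31 members, in 31 windows of 300 bases. They are shown because SREBP-2 is known to act through a sterol regulatory element beside an NF-Y box. Both strands were searched for the sterol regulatory element TCACNCCAC, the NF-Y box CCAAT, the cAMP response element TGACGTCA and an LXR element, the half-site AGGTCA repeated in the same direction with 4 bases between. The sterol regulatory element was found in 1 member window (3.23%), that of Hmgcs1, against 1.24% of all 32851 windows. The NF-Y box was in 19 of the 31 member windows (61.3%), 1 for each of 19 genes, against 37.4% of all windows. The cAMP response element was in 0 member windows against 1.79% of all, and the LXR element in 0 against 0.0152% of all. The counts describe these letters in these windows only.

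The windows of 4 genes follow, with matches to the sterol regulatory element and the NF-Y box in capitals (ATTGG is the NF-Y box read on the opposite strand, and no match of one motif overlaps a match of the other): Hmgcs1 (chr13:119690101-119690400, plus strand), which holds the 9-letter match between 137 and 129 bases before the start site and 4 NF-Y boxes, Msmo1 (chr8:64733529-64733828, minus strand) with 3 NF-Y boxes, Srebf2 (chr15:82147019-82147318, plus strand) with 1, and Insig1 (chr5:28071162-28071461, plus strand) with 1.
Hmgcs1: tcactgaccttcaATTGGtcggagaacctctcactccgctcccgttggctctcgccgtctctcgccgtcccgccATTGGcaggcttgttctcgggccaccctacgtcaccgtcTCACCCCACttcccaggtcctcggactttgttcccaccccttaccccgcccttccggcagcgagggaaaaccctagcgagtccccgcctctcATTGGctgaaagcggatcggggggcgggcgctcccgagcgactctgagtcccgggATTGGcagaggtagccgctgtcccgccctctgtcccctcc
Msmo1: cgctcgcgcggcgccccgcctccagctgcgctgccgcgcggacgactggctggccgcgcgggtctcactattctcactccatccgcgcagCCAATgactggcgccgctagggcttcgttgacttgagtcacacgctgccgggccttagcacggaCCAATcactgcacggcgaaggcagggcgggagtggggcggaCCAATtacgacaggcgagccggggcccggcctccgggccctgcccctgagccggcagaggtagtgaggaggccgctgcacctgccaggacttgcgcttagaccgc
Srebf2: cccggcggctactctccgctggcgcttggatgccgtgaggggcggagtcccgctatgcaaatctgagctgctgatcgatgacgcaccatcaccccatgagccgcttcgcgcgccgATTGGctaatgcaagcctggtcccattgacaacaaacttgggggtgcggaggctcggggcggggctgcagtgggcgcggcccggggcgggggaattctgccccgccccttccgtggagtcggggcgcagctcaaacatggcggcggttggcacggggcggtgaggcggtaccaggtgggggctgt
Insig1: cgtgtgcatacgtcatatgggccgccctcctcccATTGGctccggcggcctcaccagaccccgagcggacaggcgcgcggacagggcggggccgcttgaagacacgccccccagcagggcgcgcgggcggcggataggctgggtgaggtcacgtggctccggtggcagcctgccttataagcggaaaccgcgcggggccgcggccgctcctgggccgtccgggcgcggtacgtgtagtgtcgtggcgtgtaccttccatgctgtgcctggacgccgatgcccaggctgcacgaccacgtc

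Reads counted on genes lay between 2000780 and 5409583 per library and were more numerous in vector than in tSema4B cells, from 2841941 to 3682634 against 2000780 to 2541747 without stimulation and from 4739777 to 5409583 against 2307190 to 3144946 after NE. Sema4b itself averaged 116797 ± 6692 normalized counts (SD, n = 3) in vector and 281514 ± 31108 in tSema4B cells without stimulation, and 74266 ± 8219 and 234276 ± 32374 after NE. It therefore took between 2.04% and 4.02% of a vector library and between 7.01% and 10.2% of a tSema4B library. The adipocyte markers Adipoq, Fabp4, Plin1, Cidec, Pparg, Cebpa, Lpl and Retn summed to between 33865 and 37704 normalized counts in vector and to between 5307 and 7953 in tSema4B cells without stimulation. After NE the same sum ran from 48153 to 61135 in vector and from 9573 to 10977 in tSema4B cells, and 8 of the 8 markers were lower in tSema4B in both conditions. Preadipocyte and fibroblast markers summed to between 15920 and 16640 in vector and between 29892 and 33912 in tSema4B cells without stimulation, and to between 13019 and 15211 and between 28002 and 29689 after NE. Of these 8 markers 6 were called higher in tSema4B without stimulation and 7 after NE, 2 of them at least 2-fold each time. Thy1 was called in neither condition (log2 change -0.12 and 0.10). Ly6a was not called without stimulation (log2 change 0.52, adjusted p = 0.0631). The 5 brown adipocyte markers Ucp1, Cidea, Ppargc1a, Dio2 and Adrb3 summed to between 208 and 223 normalized counts in unstimulated vector, between 41.7 and 60.3 in unstimulated tSema4B, between 421 and 427 in NE-treated vector and between 92.5 and 112 in NE-treated tSema4B cells. Dio2 was at 0 in every library. Of the 4 tested, Ucp1, Cidea and Adrb3 were called lower in tSema4B in both conditions while Ppargc1a was not called (log2 change 0.41 and 0.36), and with NE only Ucp1 was called, higher in both lines. Ucp1 was at 0 in the unstimulated tSema4B libraries, between 9.25 and 15.2 normalized counts in unstimulated vector, between 268 and 293 in NE-treated vector and between 60.8 and 66.5 in NE-treated tSema4B cells. Fewer than 3 unstimulated libraries reached 10, so Ucp1 passed the filter on low counts only through the NE-treated libraries, where it was high. Of 5 macrophage markers Ptprc and Adgre1 were at 0 in all 12 libraries and the sum reached at most 24.6 normalized counts, of 4 endothelial markers Tie1 was at 0 and the sum reached 17.2, and of 3 hepatocyte markers Alb and Ttr were at 0 and the sum reached 2.84. Csf1r, a macrophage marker, was between 0 and 2.74 normalized counts in unstimulated libraries and between 9.65 and 19.8 after NE, so that it passed the filter on low counts through the NE-treated libraries alone. The shift from adipocyte to preadipocyte markers moved with every tSema4B difference given below, its part in these differences was not tested, and in such bulk RNA fewer cells of a type and less RNA per cell cannot be told apart.

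Levels were compared between members per kilobase of exon, since a longer transcript collects more reads. On this scale, as the mean of the 4 groups, Acat1 (264 normalized counts per kb), Hmgcs1 (241), Cyp51 (194), Insig1 (179.8) and Insig2 (155) stood highest, and the exporter Abcg1 (7.80) and the sterol reductase Tm7sf2 (2.93) lowest. The order differed between groups, with Hmgcs1 (293 and 282) and Cyp51 (259 and 224) above Acat1 (179 and 184) in unstimulated and NE-treated tSema4B cells, and with Abcg1 at 20.2 in NE-treated vector cells against 1.23 in unstimulated tSema4B cells. Tm7sf2 rested on 3 to 25 reads per library. Abcg1 had 5 to 8 reads in each unstimulated tSema4B library and Nr1h3 5 to 28, so their levels there rest on few reads. Some members share exon sequence with a neighbour, which counting may have split or lost. Fdps shares 1124 exon bases with Gm43738 and Tm7sf2 shares 532 with Vps51 on the same strand, and Scap, Fdft1 and Hmgcs1 share 985, 774 and 557 bases with genes on the opposite strand, whose reads cannot be told apart if strand was not used.

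**Figure D1:**
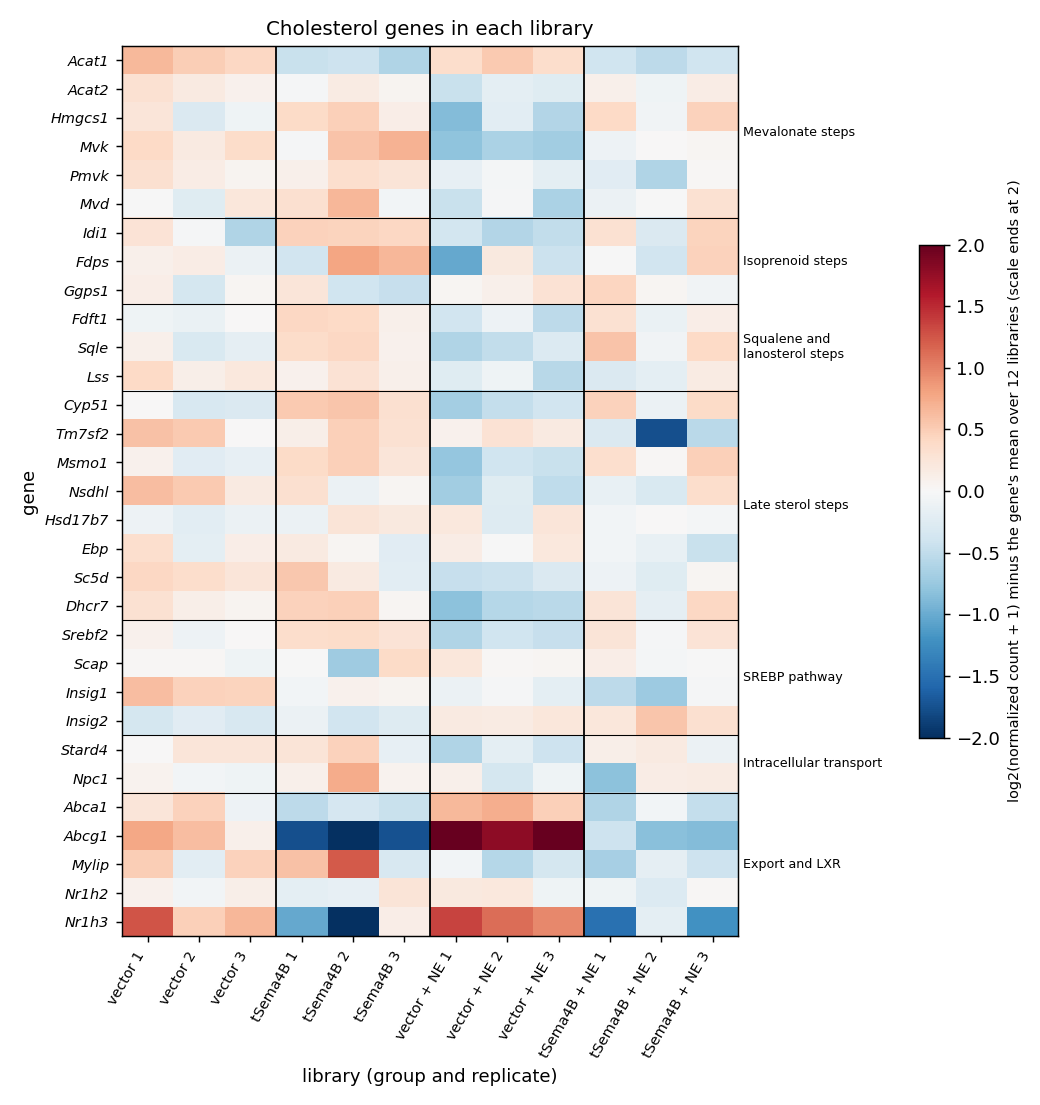
Each row is 1 of the 31 genes and each column 1 of the 12 libraries; colour gives log2(normalized count + 1) minus the gene's mean over the 12 libraries, on a scale that ends at 2 in either direction. Most enzyme rows are blue in the vector + NE libraries and many are red in unstimulated tSema4B. In contrast, Acat1, Abca1 and Abcg1 are blue in the tSema4B columns, and Nr1h3 is blue in most of them.

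tSema4B cells were first compared with vector cells within each condition. Under unstimulated conditions, 3 members were higher in tSema4B (Cyp51, Msmo1 and Srebf2) and 5 were lower (Acat1, Insig1, Abca1, Abcg1 and Nr1h3) at an adjusted p of 0.05 or less. Across all 11998 genes 5.64% were called higher and 7.39% lower by this rule, and the median log2 fold change of the members was 0.05 against -0.00 for all genes. In NE-treated cells 10 members were higher in tSema4B, namely Acat2, Hmgcs1, Mvk, Fdft1, Sqle, Cyp51, Msmo1, Dhcr7, Srebf2 and Stard4, and 4 were lower, namely Acat1, Abca1, Abcg1 and Nr1h3. The background was 9.79% of genes called higher and 11.2% lower, and the median of the members was 0.18 against -0.01. When a 2-fold change (1 log2 unit in either direction) was asked for as well, 0 members were higher and 3 lower without stimulation (1.11% and 2.71% of all genes), and 0 higher and 2 lower after NE (2.03% and 3.73%). Of all genes called without stimulation 43.3% were higher, a share that was 48.8% with libraries rescaled to the same total and 27.8% with libraries rescaled to the same nuclear total. Of those called after NE 46.7% were higher, and the same scalings gave 61.6% and 38.2%. Among the 20 enzymes, 2 were called higher and 1 (Acat1) lower without stimulation (median 0.13), and 8 higher and 1 (Acat1) lower after NE (median 0.43). Groups of 3 libraries often stood apart. Without stimulation 29.4% of all genes and 32.3% of the members had no overlap between the groups, and after NE 37.7% and 58.1%.

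**Figure D2:**
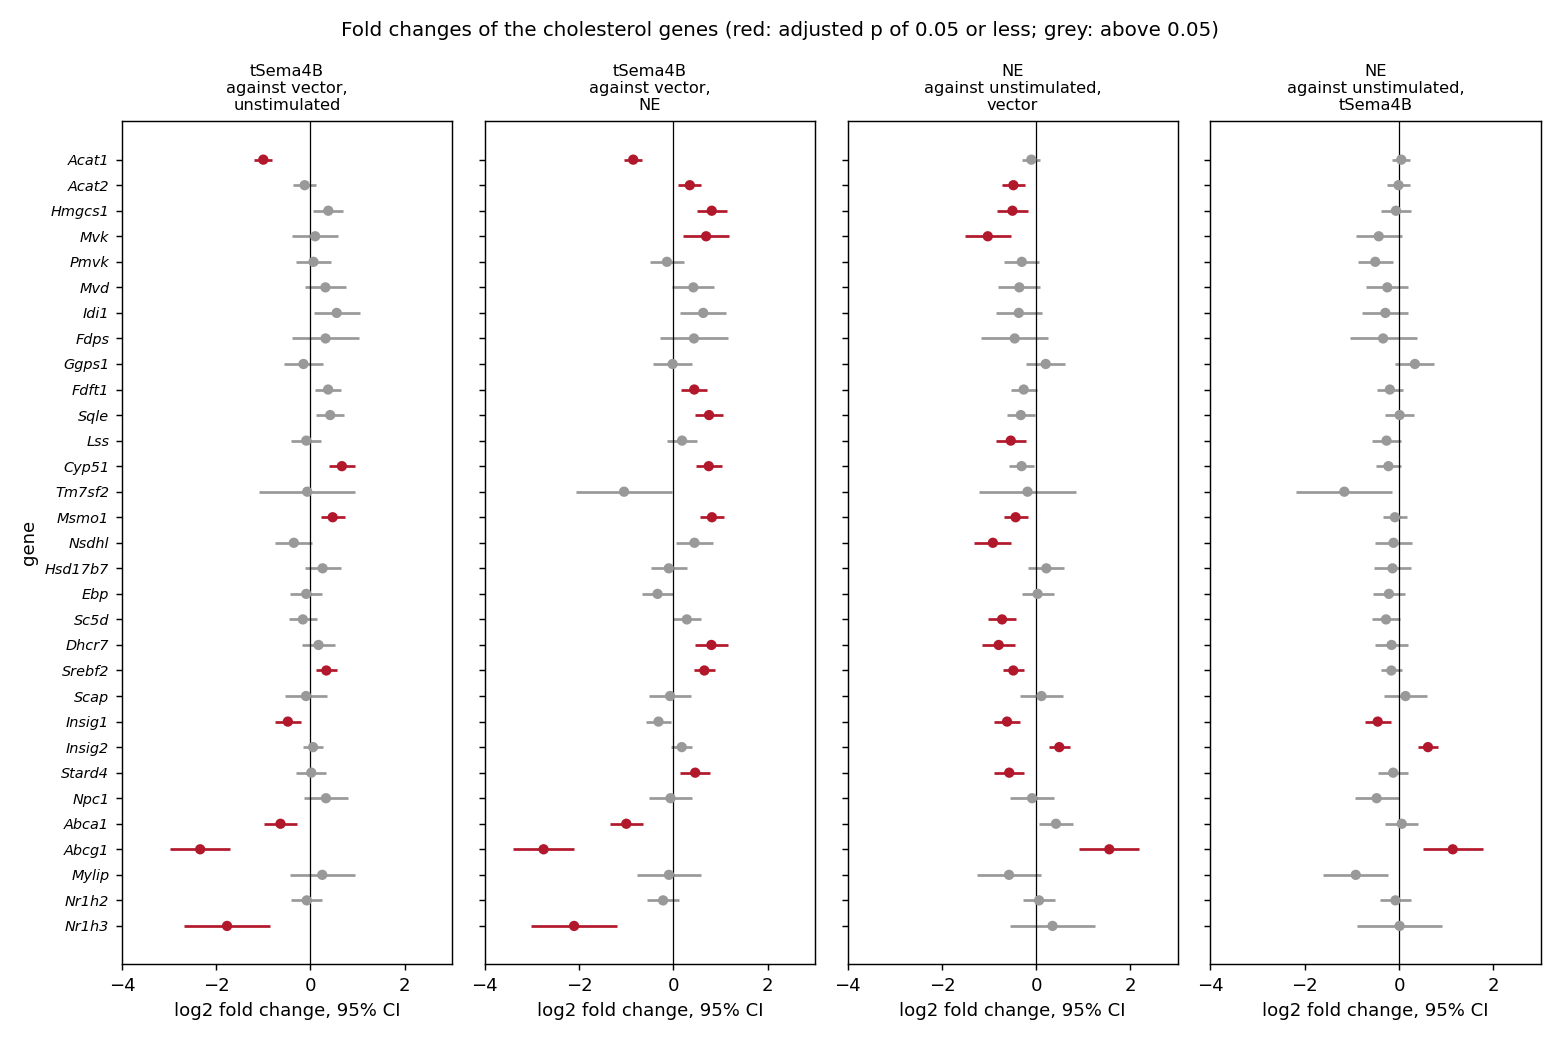
Points give the log2 fold change of each member in the 4 comparisons of 2 groups and bars its 95% confidence interval from limma; red marks an adjusted p of 0.05 or less. Abcg1 and Nr1h3 lie farthest to the left in both panels of tSema4B against vector, and the red points of the enzymes other than Acat1 lie right of 0 in the NE panel of tSema4B against vector and left of 0 in the panel of NE in vector cells.

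The mevalonate steps begin with the thiolases. Acat1 (chromosome 9, 53580522 to 53610382), the mitochondrial thiolase that also serves ketone body and branched-chain amino acid use, had 1467, 1315 and 1255 normalized counts in vector libraries 1, 2 and 3 and 686, 707 and 620.2 in tSema4B libraries 1, 2 and 3 without stimulation, the order in which libraries are given throughout. After NE it had 1205, 1356 and 1196 in vector and 713, 652 and 714 in tSema4B cells. Every tSema4B library lay well below every vector library in both conditions. Acat1 was lower in tSema4B with a log2 change of -1.001 (SE 0.0918, adjusted p = 6.46e-08) without stimulation and a log2 change of -0.85 (SE 0.0918, adjusted p = 7.33e-07) after NE. Acat2, the cytosolic thiolase that supplies sterol synthesis, did not follow it. Its counts were 467, 429 and 403 in vector and 373, 425 and 393 in tSema4B cells without stimulation, and 279, 330.1 and 319.5 and 409, 356 and 419 after NE. The unstimulated groups overlapped (log2 change -0.12 with SE 0.116, adjusted p = 0.551), whereas after NE the lowest tSema4B library exceeded the highest vector library (log2 change 0.35 with SE 0.116, adjusted p = 0.0355).

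Hmgcs1 (chromosome 13, 119690379 to 119708260), which condenses acetoacetyl-CoA to HMG-CoA, had 1254, 870.2 and 1005 normalized counts in vector and 1396, 1480.4 and 1164 in tSema4B cells without stimulation. With NE the counts were 586, 923 and 711 in vector and 1411, 1017 and 1459 in tSema4B cells. The unstimulated groups overlapped, vector library 1 being above tSema4B library 3, while the NE-treated groups did not. The difference did not pass the test without stimulation (log2 change 0.38 with SE 0.154, adjusted p = 0.115) and passed after NE (log2 change 0.81 with SE 0.154, adjusted p = 0.000585). For Mvk, the mevalonate kinase, the unstimulated libraries gave 83.6, 71.5 and 81.7 in vector and 62, 94.4 and 103 in tSema4B cells and overlapped (log2 change 0.10 with SE 0.236, adjusted p = 0.844). The NE-treated ones gave 35.6, 40.3 and 38.6 and 59, 63.4 and 64.7, with all tSema4B libraries above the vector libraries (log2 change 0.69 with SE 0.236, adjusted p = 0.0393). The remaining members of this stretch, Pmvk and Mvd, passed no test by limma with all libraries. Pmvk, the next kinase, averaged 149 ± 14.8, 155 ± 12.7, 120.1 ± 7.06 and 111 ± 23.7 (SD, n = 3) in unstimulated vector, unstimulated tSema4B, NE-treated vector and NE-treated tSema4B cells. Mvd, the decarboxylase that yields isopentenyl diphosphate, averaged 118 ± 19.6, 149 ± 36.8, 92.7 ± 20.9 and 124 ± 19.3 in the same order of groups.

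None of the 3 isoprenoid enzymes passed in the model of all 12 libraries on the deposited scale. Idi1, the isomerase, averaged 81.9 ± 23.9, 117 ± 2.11, 61.4 ± 4.83 and 97.9 ± 24.8. Its tSema4B libraries lay above its vector libraries in both conditions, and it gave a log2 change of 0.56 (SE 0.236, adjusted p = 0.131) without stimulation and a log2 change of 0.63 (SE 0.236, adjusted p = 0.0604) after NE. The NE-treated difference of Idi1 passed with edgeR (adjusted p = 0.0443), with DESeq2 (0.0334), with libraries rescaled to the same total (0.0304) and without tSema4B library 2 (0.0184). Fdps, the farnesyl diphosphate synthase, averaged 50.2 ± 4.87, 66.7 ± 26, 38.4 ± 16.2 and 50.9 ± 15.4. Ggps1, which makes geranylgeranyl diphosphate for protein prenylation, averaged 139 ± 23.4, 127 ± 36.5, 159 ± 14.1 and 159 ± 30.3. The groups of both overlapped in each comparison of tSema4B with vector.

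The first committed step to sterols, squalene synthase (Fdft1), had 396, 384 and 427 normalized counts in vector and 561, 558 and 452 in tSema4B cells without stimulation. Those groups did not overlap, but the difference missed the threshold (log2 change 0.37 with SE 0.133, adjusted p = 0.0671), which it passed with a filter of 50 (0.0495), with libraries rescaled to the same total (0.0493) and without tSema4B library 3 (0.0314). Counts after NE were 323, 394 and 295 in vector and 523, 387 and 465 in tSema4B cells, and here vector library 2 reached just above tSema4B library 2 while the difference passed (log2 change 0.44 with SE 0.133, adjusted p = 0.0198). Sqle (chromosome 15, 59315077 to 59331192), the squalene epoxidase and a rate-controlling enzyme of the route, had 579.9, 436 and 478 in vector and 697, 719 and 575 in tSema4B cells without stimulation (log2 change 0.42 with SE 0.145, adjusted p = 0.061). Its counts after NE were 357, 383 and 447 and 802, 517 and 714. The lowest NE-treated tSema4B library, number 2, stood above the highest NE-treated vector library, and the difference passed (log2 change 0.76 with SE 0.145, adjusted p = 0.000662). Lss, which closes squalene epoxide into lanosterol, overlapped in both conditions, with 330.1, 269.9 and 289.7 in vector and 263, 305 and 267 in tSema4B cells unstimulated and 209.6, 235 and 169.6 and 203, 217 and 280.1 after NE. It passed neither test of tSema4B (log2 change -0.09 with SE 0.152, adjusted p = 0.768 and log2 change 0.18 with SE 0.152, adjusted p = 0.427).

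Cyp51 and Msmo1, which remove methyl groups from lanosterol, were the late enzymes that were higher in tSema4B cells in both conditions. Cyp51 (chromosome 5, 4081145 to 4104746) had 832, 659 and 673 normalized counts in vector and 1179, 1216 and 1029.5 in tSema4B cells without stimulation. After NE it had 516, 591 and 634 in vector and 1136, 757 and 1074 in tSema4B cells. The groups were apart both without stimulation (log2 change 0.67 with SE 0.131, adjusted p = 0.00115) and after NE (log2 change 0.75 with SE 0.131, adjusted p = 0.00026). Msmo1 (chromosome 8, 64718139 to 64733792) had 813, 660.0 and 683 in vector and 1006, 1070.4 and 906 in tSema4B cells without stimulation. Its NE-treated counts were 449, 581 and 566 and 972, 782 and 1068. No vector library reached a tSema4B library in either condition (log2 change 0.47 with SE 0.123, adjusted p = 0.0121 without stimulation, log2 change 0.82 with SE 0.123, adjusted p = 4.56e-05 after NE). Dhcr7 (chromosome 7, 143823145 to 143848410), the reductase that turns the last precursor into cholesterol, passed the test after NE and not without stimulation. Unstimulated counts of Dhcr7 were 238, 209 and 199 in vector and 266, 269 and 197 in tSema4B cells and overlapped (log2 change 0.17 with SE 0.171, adjusted p = 0.582). NE-treated counts were 109, 129 and 133 and 232, 169 and 258, without overlap between the groups (log2 change 0.81 with SE 0.171, adjusted p = 0.00166).

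The other late enzymes passed no test of tSema4B against vector by limma on the deposited scale. Nsdhl, a sterol dehydrogenase, had 241, 226 and 179 in vector and 198, 145 and 162 in tSema4B cells unstimulated and 97.4, 133 and 110.0 and 143, 127 and 201 after NE. It gave a log2 change of -0.35 (SE 0.19, adjusted p = 0.25) without stimulation and a log2 change of 0.45 (SE 0.19, adjusted p = 0.1) after NE, where it passed with libraries rescaled to the same total (0.0441). Both pairs of groups overlapped. Sc5d, the sterol desaturase before Dhcr7, had 539.7, 516 and 479 in vector and 592, 461 and 349 in tSema4B cells unstimulated and 296, 302 and 331 and 376, 342 and 416 after NE. In NE-treated cells its tSema4B libraries all lay above the vector libraries, yet the difference missed the threshold (log2 change 0.29 with SE 0.144, adjusted p = 0.173). Hsd17b7, a ketosterol reductase, averaged 100.5 ± 4.02, 121 ± 16.2, 118 ± 21.7 and 109 ± 2.34. Ebp, the sterol isomerase, averaged 215 ± 38.7, 201 ± 27.9, 218 ± 17 and 173 ± 23.6. Its NE-treated tSema4B libraries all lay below the vector libraries, but the difference missed the threshold (log2 change -0.34 with SE 0.163, adjusted p = 0.155). Tm7sf2 averaged 16 ± 3.53, 15.1 ± 1.95, 13.8 ± 1.03 and 6.81 ± 3.54. After NE its tSema4B libraries likewise lay below the vector libraries without passing (log2 change -1.05 with SE 0.492, adjusted p = 0.141). The 95% confidence interval of this difference ran from -2.07 to -0.02 on the log2 scale.

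**Figure D3:**
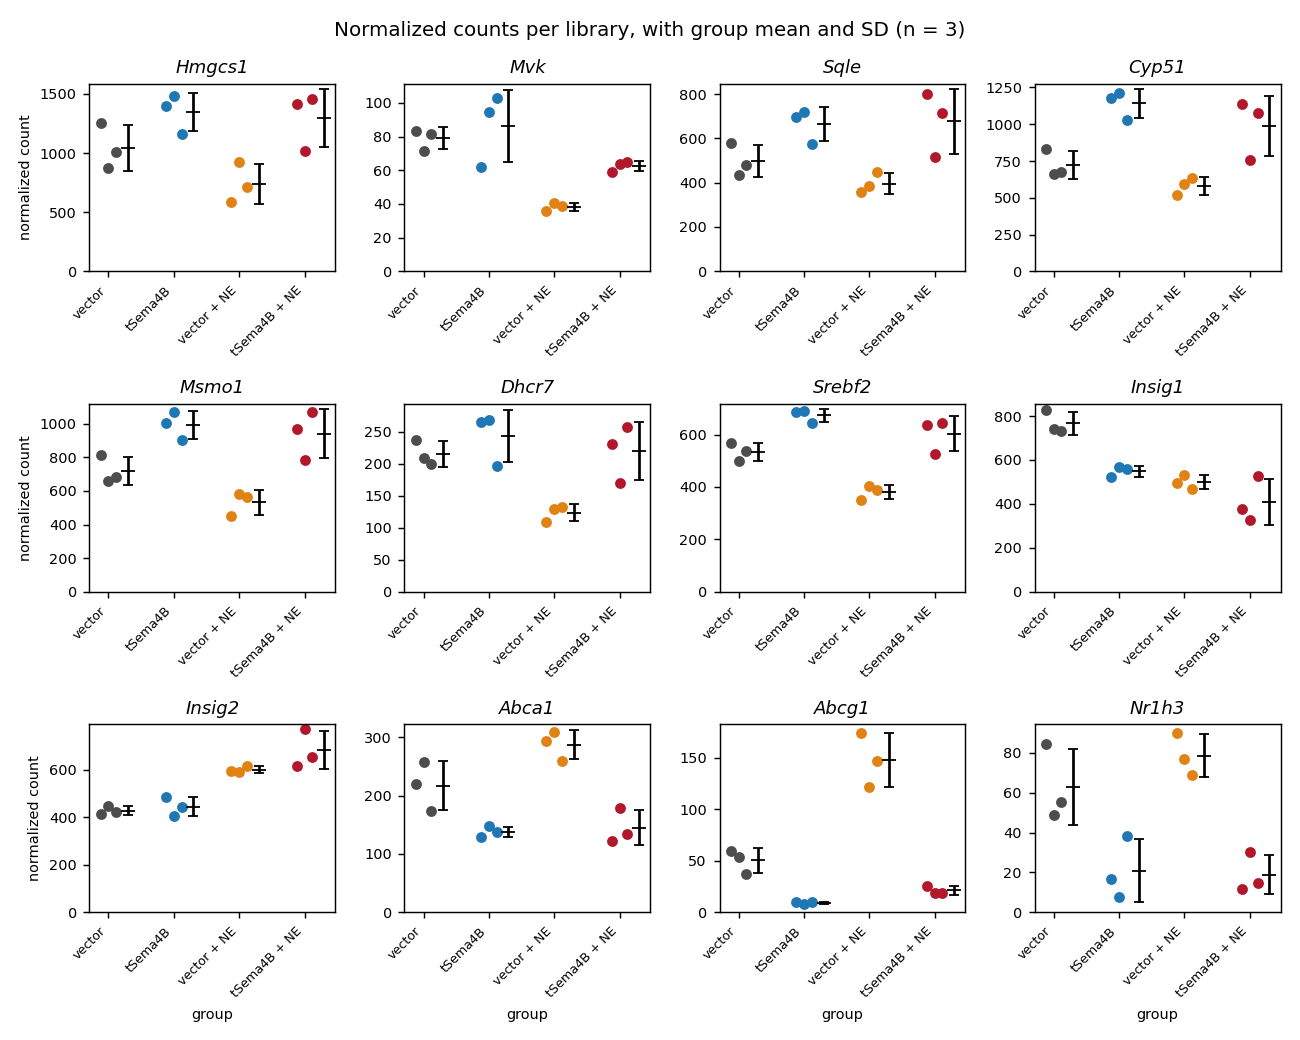
Points are the normalized counts of 12 genes in single libraries, with the group mean and SD (n = 3) beside them; each panel has its own axis from 0. Hmgcs1, Sqle, Cyp51, Msmo1, Dhcr7 and Srebf2 are lowest in vector + NE, Insig2 is higher in both NE-treated groups, and Abca1, Abcg1 and Nr1h3 are lower in both tSema4B groups.

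Within the SREBP pathway, Srebf2 was higher and Insig1 lower in tSema4B cells without stimulation. Srebf2 (chromosome 15, 82147181 to 82205379) had 568, 498 and 536 normalized counts in vector and 686, 689.9 and 643 in tSema4B cells without stimulation. After NE the libraries gave 351, 405 and 388 in vector and 637, 526 and 646 in tSema4B cells. The groups stood apart in both conditions, with a log2 change of 0.34 (SE 0.106, adjusted p = 0.0395) without stimulation and a log2 change of 0.66 (SE 0.106, adjusted p = 0.000113) after NE. Insig1 (chromosome 5, 28071363 to 28078662), itself a target of SREBP-2 and a brake on it, had 829, 741 and 732 in vector and 521, 569 and 557 in tSema4B cells without stimulation. All vector libraries were higher, and Insig1 was lower in tSema4B cells (log2 change -0.48 with SE 0.132, adjusted p = 0.0169). With NE the counts were 495, 532 and 470.1 in vector and 375, 325 and 527 in tSema4B cells, tSema4B library 3 lay among the vector libraries, and the difference did not pass (log2 change -0.31 with SE 0.132, adjusted p = 0.0953). Without that library the log2 change of Insig1 was -0.51 (adjusted p = 0.00364), and with libraries rescaled to the same nuclear total it passed as well (0.0449). Insig2 had 414, 449 and 421 in vector and 487, 405 and 444 in tSema4B cells unstimulated and 596, 590.3 and 617 and 619, 774 and 657 after NE. Its NE-treated tSema4B libraries lay above the vector libraries, but it passed neither test (log2 change 0.05 with SE 0.107, adjusted p = 0.804 and log2 change 0.18 with SE 0.107, adjusted p = 0.259). Scap averaged 111 ± 4.69, 109 ± 39.3, 120.2 ± 9.37 and 114 ± 7.80, with overlap in both conditions.

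Of the sterol carriers, Stard4, which moves cholesterol between membranes and belongs to the SREBP-2 targets, had 292, 346 and 345 in vector and 348, 401 and 259 in tSema4B cells unstimulated (log2 change 0.02 with SE 0.154, adjusted p = 0.963). In NE-treated cells it had 191, 253 and 219 and 315, 329 and 268, without overlap (log2 change 0.46 with SE 0.154, adjusted p = 0.0358). Npc1, which lets cholesterol out of late endosomes, averaged 171 ± 9.85, 220.0 ± 61.4, 162 ± 24.6 and 162 ± 55.5 and passed no test.

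The exporters and Nr1h3 were lower in tSema4B cells in both conditions. Abcg1 (chromosome 17, 31057675 to 31117988), which loads cholesterol onto high density lipoprotein, had 59.7, 53.8 and 37 normalized counts in vector and 9.53, 7.73 and 9.58 in tSema4B cells without stimulation. After NE it had 174, 122 and 147 in vector and 25.7, 18.9 and 18.5 in tSema4B cells. Every vector library exceeded every tSema4B library of its condition. Abcg1 was 5.07-fold lower in tSema4B without stimulation (log2 change -2.34 with SE 0.308, adjusted p = 1.09e-05) and 6.74-fold lower after NE (log2 change -2.75 with SE 0.308, adjusted p = 1.24e-06), both on the scale of normalized count + 1. Abca1 (chromosome 4, 53030787 to 53159895), which hands cholesterol to lipid-poor apolipoproteins, had 219, 258 and 173 in vector and 129, 147 and 137 in tSema4B cells without stimulation. The counts after NE were 294, 308 and 259.9 and 122, 179 and 133. The groups were again separate, with a log2 change of -0.64 (SE 0.17, adjusted p = 0.014) without stimulation and a log2 change of -0.998 (SE 0.17, adjusted p = 0.000195) after NE. Nr1h3 (chromosome 2, 91184061 to 91202834), an LXR that induces both transporters, had 84.7, 48.8 and 55.5 in vector and 16.7, 7.73 and 38.3 in tSema4B cells without stimulation. With NE it had 90.0, 77.1 and 68.7 and 11.8, 30.3 and 14.5. The vector libraries were higher throughout, although tSema4B library 3 came near vector library 2 without stimulation, and it gave a log2 change of -1.77 (SE 0.436, adjusted p = 0.00803) without stimulation and a log2 change of -2.11 (SE 0.436, adjusted p = 0.00137) after NE. Its relative Nr1h2 averaged 179 ± 11.1, 171 ± 31, 187 ± 21.1 and 161 ± 16, with overlapping groups. Mylip, an LXR-induced E3 ubiquitin ligase, averaged 60.7 ± 15.5, 77.5 ± 39, 39.8 ± 7.33 and 37.2 ± 6.23 and also overlapped.

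The calls differed in how much they rested on single libraries. Without stimulation, Acat1, Cyp51 and Abcg1 passed in all 18 alternatives, a number that here and below leaves out the added 2-fold threshold. Leaving out vector library 1, vector library 2 or tSema4B library 1 lifted the adjusted p of Abca1 to 0.0547, 0.104 and 0.0508. Insig1 was lost without vector library 1 (0.0891) or tSema4B library 1 (0.0645), Msmo1 without vector library 2 (0.0707) or tSema4B library 2 (0.0567), and Nr1h3 without vector library 1 (0.0587) or tSema4B library 2 (0.0564). Srebf2 passed in 9 of 18 alternatives and was lost without any one library except tSema4B library 3 (0.0561 to 0.159), as well as with no filter (0.0699), the same nuclear total (0.125), the replicate block (0.0534) and reads thinned to the shallowest library (0.0766). Sqle, not called without stimulation, passed there with the 6 libraries alone (0.0373), among other settings. After NE, Acat1, Hmgcs1, Sqle, Cyp51, Msmo1, Dhcr7, Srebf2, Abca1, Abcg1 and Nr1h3 passed in all 18. Mvk was lost without any one of the 6 libraries (adjusted p 0.0547 to 0.113), and with a pseudocount of 10, no filter, the same nuclear total or the 6 libraries alone (0.0501 to 0.0591). The other 3 were each lost without vector library 1 or 3 or tSema4B library 1, and in addition without tSema4B library 3 for Acat2 (0.0669 to 0.161 over the 4) and Fdft1 (0.0536 to 0.117), and without tSema4B library 2 for Stard4 (0.087 to 0.162). Reads thinned to the shallowest library also ended the calls of Acat2 (0.0736), Fdft1 (0.0651) and Stard4 (0.0587). Acat2 was lost as well with no filter (0.0569), the same nuclear total (0.0659) and the 6 libraries alone (0.0529), and Stard4 with no filter (0.0699) and the same nuclear total (0.0603). The members higher numbered 7 with no filter, with the same nuclear total and with thinned reads. Without vector library 1, vector library 3 or tSema4B library 1, the members higher in NE-treated tSema4B cells numbered 6 each time.

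NE was then compared with no stimulation within each line, to see which of these genes the hormone moved. These comparisons use the same libraries as those above, so they are not independent of them. In vector cells 2 members rose (Insig2 and Abcg1) and 11 fell (Acat2, Hmgcs1, Mvk, Lss, Msmo1, Nsdhl, Sc5d, Dhcr7, Srebf2, Insig1 and Stard4), against 6.82% of all genes called higher and 4.78% lower. The median log2 fold change of the members was -0.33 against -0.02 for all genes, and 17 of the 20 enzymes had a negative value (median -0.36 over the 20, 8 of them past the test). Among all 11998 genes 6250 had a negative value. In tSema4B cells 2 members rose (again Insig2 and Abcg1) and 1 fell (Insig1), against a background of 3.68% and 2.58%. The median there was -0.16 against -0.00, and 17 of the 20 enzymes had a negative value (median -0.20) but 0 passed. Here 6061 of all 11998 genes had a negative value. When a 2-fold change was asked for as well, 1 member rose and 1 fell in vector cells (1.66% and 0.975% of all genes), and 1 rose and 0 fell in tSema4B cells (1.31% and 0.758%). The NE-treated and unstimulated groups had no overlap for 33.3% of all genes and 51.6% of the members in vector cells. In tSema4B cells these shares were 20.7% and 12.9%.

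Among the mevalonate enzymes, Mvk went from 78.9 ± 6.53 to 38.2 ± 2.38 normalized counts in vector cells, less by 2.04-fold (log2 change -1.03 with SE 0.236, adjusted p = 0.00602). In tSema4B cells it went from 86.3 ± 21.5 to 62.4 ± 3.02, with overlap (log2 change -0.43 with SE 0.236, adjusted p = 0.321). Hmgcs1 fell in vector cells from 1043 ± 195 to 739.9 ± 170.3, although NE library 2 reached above unstimulated library 2 (log2 change -0.50 with SE 0.154, adjusted p = 0.0357). In tSema4B cells its means were 1347 ± 164 and 1296 ± 243 (log2 change -0.07 with SE 0.154, adjusted p = 0.866). Acat2 fell in vector cells from 433 ± 32.2 to 309 ± 27.1 with no overlap (log2 change -0.48 with SE 0.116, adjusted p = 0.00819), against a log2 change of -0.01 (SE 0.116, adjusted p = 0.975) in tSema4B cells. Acat1 passed in neither line (log2 change -0.10 with SE 0.0918, adjusted p = 0.553 in vector, log2 change 0.05 with SE 0.0918, adjusted p = 0.838 in tSema4B cells).

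Of the sterol-forming enzymes, 5 fell in vector cells. Nsdhl went from 215 ± 32.6 to 113 ± 17.9 (log2 change -0.92 with SE 0.19, adjusted p = 0.00271), Dhcr7 from 215 ± 20.1 to 124 ± 13 (log2 change -0.80 with SE 0.171, adjusted p = 0.00363) and Sc5d from 512 ± 30.5 to 309 ± 18.7 (log2 change -0.72 with SE 0.144, adjusted p = 0.002). Lss (log2 change -0.54 with SE 0.152, adjusted p = 0.0224) and Msmo1 (log2 change -0.44 with SE 0.123, adjusted p = 0.022) fell by less. In each of these 5 every NE-treated vector library lay below every unstimulated one, as was so for 1882 of all 11998 genes. Cyp51 and Sqle, which stood out between the lines, had a log2 change of -0.31 (SE 0.131, adjusted p = 0.142) and a log2 change of -0.33 (SE 0.145, adjusted p = 0.167) in vector cells and did not pass. In tSema4B cells none of the 7 passed, with log2 fold changes between -0.28 (Sc5d) and 0.01 (Sqle).

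Srebf2 fell in vector cells from 534 ± 35.1 to 381 ± 27.6 with no overlap (log2 change -0.49 with SE 0.106, adjusted p = 0.0042), and gave a log2 change of -0.16 (SE 0.106, adjusted p = 0.424) in tSema4B cells. Insig1 fell from 767 ± 53.4 to 499 ± 31.3 in vector cells (log2 change -0.62 with SE 0.132, adjusted p = 0.00345) and from 549 ± 25.2 to 409 ± 105 in tSema4B cells, where NE library 3 lay among the unstimulated libraries (log2 change -0.45 with SE 0.132, adjusted p = 0.043). Insig2, in contrast, rose in both lines and without overlap, from 428 ± 18.5 to 601 ± 13.9 in vector (log2 change 0.49 with SE 0.107, adjusted p = 0.00407) and from 445 ± 41.1 to 683 ± 80.7 in tSema4B cells (log2 change 0.61 with SE 0.107, adjusted p = 0.000756). Stard4 fell in vector cells from 328 ± 30.8 to 221 ± 31.2 (log2 change -0.57 with SE 0.154, adjusted p = 0.0176), against a log2 change of -0.13 (SE 0.154, adjusted p = 0.721) in tSema4B cells.

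Abcg1 rose with NE in vector cells, 2.93-fold from 50.2 ± 11.8 to 148 ± 26.3 (log2 change 1.55 with SE 0.308, adjusted p = 0.00196), and in tSema4B cells, 2.20-fold from 8.95 ± 1.05 to 21.1 ± 4.06 (log2 change 1.14 with SE 0.308, adjusted p = 0.0275), without overlap in either line. NE-treated tSema4B cells still held fewer Abcg1 counts than unstimulated vector cells in every library. Abca1 stood above its unstimulated level in all NE-treated vector libraries but missed the threshold (log2 change 0.42 with SE 0.17, adjusted p = 0.124), which it passed in a fit of the 6 libraries alone (0.0492), and gave a log2 change of 0.06 (SE 0.17, adjusted p = 0.899) in tSema4B cells. Nr1h3 passed in neither line (log2 change 0.35 with SE 0.436, adjusted p = 0.703 in vector, log2 change 0.01 with SE 0.436, adjusted p = 0.994 in tSema4B cells).

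In vector cells the NE calls of Mvk, Nsdhl, Sc5d, Dhcr7, Srebf2, Insig1, Insig2 and Abcg1 passed in all 18 alternatives. Leaving out unstimulated library 1 or NE library 1 ended those of Acat2 (adjusted p 0.0522 and 0.0531) and Msmo1 (0.134 and 0.144). Msmo1 was also lost with no filter (0.0576). Hmgcs1 was lost with DESeq2 (0.112) and with no filter (0.102). Hmgcs1 (0.0759 to 0.212) and Lss (0.0509 to 0.157) were lost without unstimulated library 1 or 3 or NE library 1 or 3, and Stard4 (0.0617 to 0.0946) without unstimulated library 2 or 3 or NE library 1 or 3. Members that fell numbered 7 without unstimulated library 1 and 6 without NE library 1. In tSema4B cells Insig2 passed in all 18. Abcg1 was lost without unstimulated library 2 (0.0676) or NE library 1 (0.0885) and with a pseudocount of 10 (0.0824), with no filter (0.0601), with edgeR (0.0577), with DESeq2 (0.0702) and in a fit of the 6 libraries alone (0.274), and Insig1 without each single library other than NE library 3 (0.0651 to 0.208), as well as under the replicate block (0.0531). The adipocyte marker sums given above were higher with NE in both lines, but in vector cells 2 of the 8 markers were called higher and 2 lower, namely Plin1 (log2 change -0.97, adjusted p = 0.03) and Pparg (-0.71, adjusted p = 0.0146), with a median of 0.01. In tSema4B cells 4 were called higher and 0 lower. Of the 8 preadipocyte and fibroblast markers, Pdgfrb, Col1a1, Cd34 and Dlk1 were called lower with NE and Ly6a higher, in vector (log2 change -0.56, -0.30, -0.55, -0.55 and 0.87) as in tSema4B cells (-0.50, -0.27, -0.38, -0.37 and 1.07). The part of these markers, and of Csf1r, in the NE results was not tested.

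The difference between the NE responses of the lines was tested directly as an interaction. By limma 0 members passed in either direction, against 0.025% of all genes called higher and 0% lower. Both edgeR and DESeq2 also called 0 members. At an unadjusted p under 0.05, 5 members had a higher value in tSema4B cells and 0 a lower one. The share of all genes under that looser rule is not given here, so no excess is read from this count. The number higher was 3 without vector NE library 1 and 8 with libraries rescaled to the same total. The 5 were Nsdhl (log2 change 0.80 with SE 0.269, adjusted p = 0.281), Acat2 (log2 change 0.47 with SE 0.164, adjusted p = 0.301), Dhcr7 (log2 change 0.64 with SE 0.242, adjusted p = 0.344), Sc5d (log2 change 0.45 with SE 0.204, adjusted p = 0.45) and Srebf2 (log2 change 0.32 with SE 0.151, adjusted p = 0.475), each named after its value was seen. The unadjusted 95% confidence interval of the interaction ran from 0.24 to 1.36 for Nsdhl and from 0.14 to 1.14 for Dhcr7. Genes picked at an unadjusted p under 0.05 always have intervals that leave out 0, so nothing is read from this. That more enzymes passed the NE test in vector than in tSema4B cells was therefore not shown to be a difference between the lines. For a single gene an exact permutation test of 3 against 3 libraries cannot go below p = 0.1.

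A summary per library shows the spread behind these counts. For the 20 enzymes, the mean deviation from the 12-library mean was 0.25, 0.02 and 0.02 on the log2 scale in unstimulated vector libraries 1, 2 and 3 and 0.19, 0.31 and 0.10 in unstimulated tSema4B libraries. It was -0.40, -0.18 and -0.28 in NE-treated vector and 0.07, -0.25 and 0.14 in NE-treated tSema4B libraries. All NE-treated vector libraries lay below all unstimulated libraries, unstimulated vector library 1 stood above tSema4B libraries 1 and 3, and NE-treated tSema4B library 2 lay among the NE-treated vector libraries. Without that library the members higher in NE-treated tSema4B cells than in vector numbered 9.

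**Figure D4:**
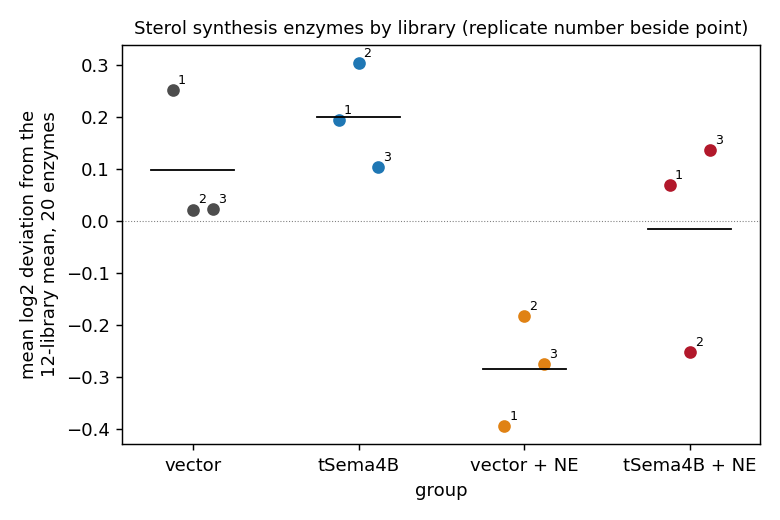
Points are single libraries, numbered by replicate, and lines are group means. The vertical axis gives the mean over the 20 enzymes, Acat1 and Ggps1 included, of log2(normalized count + 1) minus each gene's 12-library mean. The vector + NE libraries are the lowest group, between -0.40 and -0.18, and tSema4B + NE library 2 sits among them at -0.25.

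The 41 tested genes of the second list, counted the same way, had a median near that of all genes. Of these, 6 were higher and 5 lower in tSema4B without stimulation (against 5.64% and 7.39% of all genes), and 10 higher and 4 lower after NE (9.79% and 11.2%). With NE 2 rose and 2 fell in vector cells (6.82% and 4.78%), 3 rose and 0 fell in tSema4B cells (3.68% and 2.58%), and 0 passed the interaction. The median log2 fold changes were 0.05, 0.07, 0.01 and -0.04. Cyp7b1, an oxysterol hydroxylase, was the one gene of the list past both thresholds in every comparison of 2 groups. It had 22.8, 10.1 and 20.7 normalized counts in vector and 65.6, 83.5 and 69.8 in tSema4B cells without stimulation, and 62.5, 68.8 and 32.7 and 242, 266 and 176 after NE. No group overlapped the one it was compared with. For tSema4B against vector it gave a log2 change of 2.04 (SE 0.309, adjusted p = 6.37e-05) unstimulated and a log2 change of 2.09 (SE 0.309, adjusted p = 4.02e-05) with NE. For NE it gave a log2 change of 1.57 (SE 0.309, adjusted p = 0.00181) in vector and a log2 change of 1.62 (SE 0.309, adjusted p = 0.00197) in tSema4B cells, and each of these passed in all 18 alternatives.

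The other genes of the list past both thresholds did so after NE on low counts. Nceh1, a cholesterol ester hydrolase, had 32.9, 23.1 and 22.3 in vector and 47.2, 40.7 and 85.9 in tSema4B cells after NE (log2 change 1.07 with SE 0.38, adjusted p = 0.0496). Gramd1b, a sterol carrier between plasma membrane and endoplasmic reticulum, had 21.5, 34.4 and 34 in vector and 4.29, 16.1 and 10.6 in tSema4B cells (log2 change -1.58 with SE 0.52, adjusted p = 0.034). Its relative Gramd1c had 0, 1.78 and 0.655 in NE-treated vector, 9.65, 13.3 and 3.96 in NE-treated tSema4B and 10.9, 26.9 and 2.18 in unstimulated vector cells. It gave a log2 change of 2.45 (SE 0.769, adjusted p = 0.0261) for tSema4B against vector after NE and a log2 change of -2.61 (SE 0.769, adjusted p = 0.0291) for NE in vector cells. No NE-treated vector library of Gramd1c reached the 10 normalized counts of the filter, which it passed through the other groups. The receptor Lrp8 had 12.8, 19 and 9.17 in vector and 0, 2.84 and 6.61 in tSema4B cells after NE (log2 change -2.19 with SE 0.781, adjusted p = 0.0494). These tSema4B values of Lrp8 also lay below that filter. Each of these calls was lost without at least 3 of the 6 libraries compared, among them tSema4B library 1 after NE for Nceh1 (0.059), Gramd1b (0.151), Gramd1c (0.0646) and Lrp8 (0.211). Other settings ended them too. With no filter the adjusted p after NE was 0.107 for Nceh1, 0.0952 for Gramd1b, 0.0664 for Gramd1c and 0.124 for Lrp8, and the NE call of Gramd1c in vector cells was lost as well (0.0768). With a pseudocount of 10 the log2 change after NE shrank to 0.78 for Gramd1c and -0.86 for Lrp8, neither of which then passed. The same setting shrank the NE change of Gramd1c in vector cells to -0.97 (adjusted p = 0.0536). DESeq2 gave no adjusted p for that NE change. Lrp8 was lost in 7 settings besides the left-out libraries and Nceh1 in 4.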

How the data were processed

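RNA was measured in 12 libraries, 4 groups of 3, by SMART-Seq2 with single-end sequencing. Per the labels and the study's methods, the authors aligned reads with STAR 2.7.9a to mm10 (GRCm38.p4), used htseq-count for gene counts and scaled these with DESeq2. Gene annotation, strand setting and treatment of multi-mapped reads are not given in the sources used here. The deposited values are a signal: counts divided by a size factor per library, here called normalized counts. Dividing each library by the value of 1 read gave whole reads for 100% of values (tolerance 0.01 reads). Samples were grouped by their labels.

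The values were tested with limma 3.58.1 (R 4.3.3; trended, moderated, two-sided) on log2(normalized count + 1). Genes needed at least 10 normalized counts in at least 3 libraries. One model of the 4 groups gave 5 comparisons. P-values were adjusted by Benjamini-Hochberg over all 11998 genes, and a gene passed at 0.05 or less. Fold changes are on the scale with the pseudocount of 1 and understate the change of low genes. SDs are over 3 libraries. Gene positions and exon lengths are from GENCODE M21 (GRCm38).

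The members and lists were chosen with earlier results of these data known. A member that passed in any comparison is given in every library and the others by group means. Genes of the second list are named where they passed and moved at least 2-fold (1 log2 unit). The scripts were tested on simulated data. The alternatives were 2 pseudocounts, 2 filters, 3 scalings, edgeR 4.0.16 and DESeq2 1.42.0 on the recovered reads, a fit of the 6 libraries compared, thinned reads, a replicate block, the added fold threshold, and each library left out in turn. No shared effect of the replicate numbers of the labels was seen: over 18 pairs, the correlation of deviations from the group means lay between -0.047 and 0.028. Such correlations over all tested genes cannot show whether libraries of the same number shared a culture or a batch.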

Additional observations from a re-analysis of the deposited data

How the results depend on the processing

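Of 38 member differences that passed, 22 passed in all of the 18 alternatives other than the added 2-fold threshold, 16 missed the threshold in at least 1 and 0 changed sign. With a 2-fold change (1 log2 unit) asked for as well, the counts of members higher and lower became 0 and 3 (tSema4B against vector, unstimulated), 0 and 2 (NE-treated), 1 and 1 (NE in vector) and 1 and 0 (NE in tSema4B). Members higher in unstimulated tSema4B became 5 with a filter of 50 or with libraries rescaled to the same total. Members that rose with NE in tSema4B became 1 with a pseudocount of 10, no filter, edgeR, DESeq2 or the 6 libraries alone. The member that fell there was lost (0) with no filter, the same total, edgeR, the 6 libraries alone or the replicate block, and DESeq2 gave 2 (Insig1 and Mylip). With the replicate block the counts higher and lower were 2 and 5, 10 and 4, 2 and 11, 2 and 0, and 0 and 0 for the interaction, in a design whose numbers are not known to pair the libraries. The cause of these moves was not tested.

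Leaving out 1 library at a time, members higher and lower ranged from 1 to 5 and from 2 to 5 (tSema4B, unstimulated), from 6 to 9 and from 4 to 5 (NE-treated), from 2 to 2 and from 6 to 11 (NE in vector), and from 1 to 2 and from 0 to 2 (NE in tSema4B). The interaction stayed at 0. Members higher in unstimulated tSema4B numbered 1 without vector library 2 or tSema4B library 2 and 5 without tSema4B library 3, and members lower numbered 2 without vector library 1 and 3 without tSema4B library 1. Members that fell with NE in tSema4B numbered 0 without unstimulated library 1 or 2 or NE library 1 or 2, and 2 without unstimulated library 3 (Mylip and Sc5d, and not Insig1) or NE library 3 (Insig1 and Pmvk). Members that rose there numbered 1 without unstimulated library 2 or NE library 1.

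The median of all genes moved by less than 0.1 on the log2 scale under every scaling. Depth limits Abcg1, Nr1h3 and Tm7sf2, which rest on few reads in tSema4B libraries. Among the 20 members whose exons overlap no other gene, 2 were higher and 4 lower in tSema4B unstimulated, 7 and 3 after NE, 2 rose and 9 fell with NE in vector cells, and 2 and 1 in tSema4B cells, against 5.64% and 7.39%, 9.79% and 11.2%, 6.82% and 4.78%, and 3.68% and 2.58% of all genes.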
